A study of Homo sapiens with 3 samples.

Results

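Gene expression was compared directly between 2 knockdown lines of the same human prostate cancer cell, sh718 and sh720, with 3 RNA sequencing libraries per line. Genes were taken when their counts summed to at least 40 over these 6 libraries, which held for 9561 of the 21726 genes listed for the series. The cells were PC3-Luc, a luciferase-carrying (pMSCV-luc) derivative of PC3, an androgen-independent prostate adenocarcinoma line from a bone metastasis. The sh718 line and the sh720 line each carry a different short hairpin RNA against CTHRC1, and another line carries a control hairpin and enters here only as a reference level. All lines carry the luciferase construct, were plated 24 h before RNA was taken, and had no other treatment in the labels. The sources used here do not say whether a line is a clone or a pool, or which vector brought in the hairpin. They also do not say if the libraries are separate cultures, so every p-value measures library-to-library spread only, and part of that spread may be technical.

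A short hairpin RNA is processed into a small RNA that guides the cell to degrade a matching messenger RNA. A second hairpin against the same gene is commonly used beside the first, because each small RNA can also act on other messages. CTHRC1 is a secreted glycoprotein linked to collagen matrix and to the non-canonical branch of Wnt signalling. Each hairpin is present in a single line, so an effect of the hairpin and a property of the line cannot be told apart here.

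Library totals ran from 883663 to 1020684 counts. Mitochondrial transcripts held 12% to 15.2% of a library, and the share of mitochondrial ribosomal RNA was 5.18% to 8.17% in sh718 and 4.71% to 7.15% in sh720. Pearson correlations of log-scaled counts in CPM (counts scaled to a fixed library total) across genes were 0.964 to 0.971 within a line and 0.924 to 0.932 between lines. The first principal component held 54.3% of the variance, with sh718 libraries at -25.8 to -24.6 and sh720 libraries at 23.2 to 26.1. No library stood apart from its line on it. Below, a difference is the log2 value of sh718 minus sh720 from edgeR, with its standard error (SE), a level is in TMM-scaled CPM as mean ± SD (n = 3 libraries), and a gene was called at a Benjamini-Hochberg adjusted p under 0.05. Levels of different genes are not compared, since CPM is not per length.

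The lines differed in a large part of the expressed genes. Of 9561 tested, 2355 were called (24.6%), with 1152 higher in sh718 (12%) and 1203 lower (12.6%). At 2-fold or more, 242 were higher and 354 lower, together 6.23% of tested genes. In 3535 genes (37%) no sh718 library overlapped any sh720 library, and 2211 of these were called. The median difference of all tested genes was -0.00049, and the common biological coefficient of variation was 6.15%. DESeq2 called 569 higher and 599 lower, and all 1168 of them were among the edgeR calls.

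**Figure D1:**
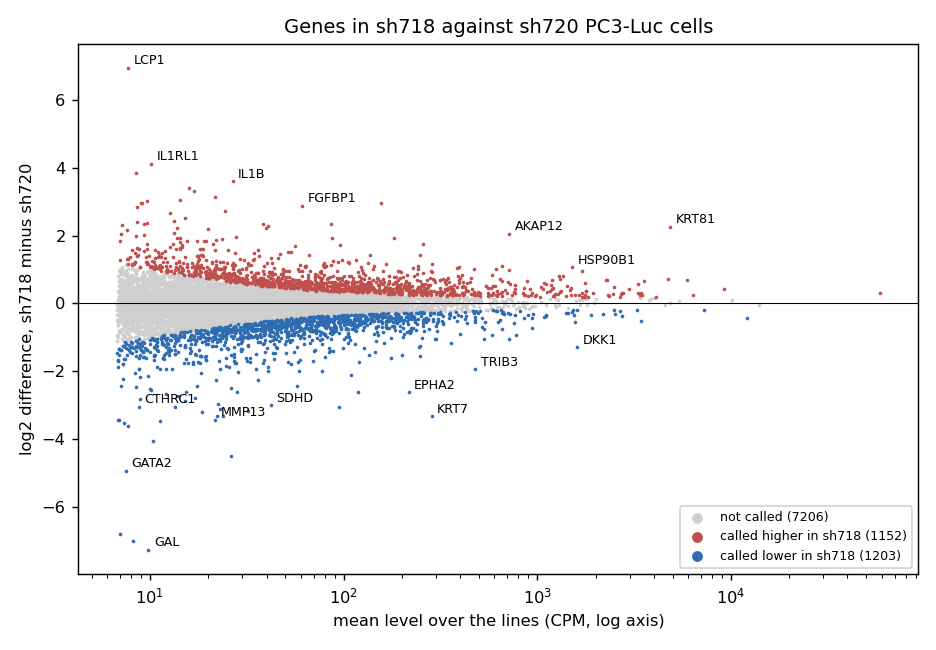
Each point is 1 of 9561 tested genes, with its mean level over both lines in CPM on a log axis and the log2 difference of sh718 minus sh720. The 1152 genes called higher and 1203 called lower spread over the whole range of levels, and the points of LCP1 and GAL, each at 0 counts in a line, depend on the prior count and are not estimates of size.

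CTHRC1 itself (ENSG00000164932, GRCh38 chromosome 8, 103371515 to 103382997, plus strand) was the first gene to check. It had 2, 2 and 1 counts in the sh718 libraries and 18, 19 and 10 in the sh720 libraries. The lines did not overlap, and both lay far below the control level of 115 ± 16.6 CPM. The level was 1.79 ± 0.67 CPM in sh718 and 15.8 ± 5.38 in sh720, a difference of -3.05 (SE 0.51, adjusted p 7.14e-06). Leaving out any 1 library moved the difference between -2.79 and -3.32.

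Some genes had few or no counts in sh720 and clearly more in sh718. LCP1 (ENSG00000136167, chromosome 13, 46125920 to 46211871, minus strand) encodes L-plastin, an actin-bundling protein of blood cells that many carcinoma lines also make. It had 11, 17 and 16 counts in sh718 and none in any sh720 library. It was higher in sh718, by 12.2-fold at the lower end of the exact 95% interval. Its control level was 17.6 CPM, beside 15.5 ± 2.28 CPM in sh718. IL1B (ENSG00000125538, chromosome 2, 112829751 to 112836903, minus strand) encodes the inflammatory cytokine interleukin-1 beta. It had 40, 52 and 48 counts in sh718 and 2, 4 and 6 in sh720, a difference of 3.59 (SE 0.32, adjusted p 3.95e-13), with the control at 15.7 CPM between the lines. IL1RL1, the interleukin-33 receptor gene (ENSG00000115602, chromosome 2, 102311502 to 102352037, plus strand), had 55 summed counts in sh718 and 3 in sh720, a ratio of 19.5 (exact 95% interval 6.34 to 97.6). In bulk RNA, fewer cells expressing such a gene and less of its RNA per cell cannot be told apart.

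The reverse was seen for GAL, PYCARD, GABRA3 and GATA2. GAL (ENSG00000069482, chromosome 11, 68683779 to 68691175, plus strand), the gene of the neuropeptide galanin, had no count in sh718 and 24, 15 and 20 in sh720. It was lower in sh718, by 14.5-fold at the lower end of the exact 95% interval. PYCARD (ENSG00000103490, chromosome 16, 31201485 to 31203450, minus strand) encodes ASC, the adaptor that joins inflammasome sensors to caspase-1. It had no count in sh718 and 11, 18 and 20 in sh720. PYCARD was lower in sh718, by 12.002-fold at the lower end of the exact 95% interval. GABRA3 (ENSG00000011677, chromosome X, 152166234 to 152451358, minus strand), a GABA receptor subunit gene, had no count in sh718 and 16, 15 and 11 in sh720. It was lower by 10.2-fold at the lower end of its interval. GATA2 (ENSG00000179348, chromosome 3, 128479427 to 128493185, minus strand) encodes a zinc finger transcription factor of blood and urogenital tissue, which also works beside the androgen receptor in prostate cells. It had 0, 0 and 1 counts in sh718 and 9, 20 and 15 in sh720, a ratio of sh720 over sh718 of 41.3 (95% interval 7.03 to 1668). The control levels of GAL, PYCARD, GABRA3 and GATA2 were 4.73, 8.99, 5.18 and 12.2 CPM. In all, 3 genes had at most 3 counts over sh720 and 9 at most 3 over sh718, and intervals cover counting error only.

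The sequence before the start of LCP1 and IL1B is shown because these genes were called higher in sh718 and hold few CG dinucleotides there. RefSeq promoter sequences (GRCh38.p14) were matched by symbol for 7664 of the tested genes, and GAL and GABRA3 were not among them. In the 250 bases before the start, LCP1 held 2 CG dinucleotides, IL1B 1 and IL1RL1 1, and of the genes near 0 in sh718, PYCARD held 16, GATA2 18, GTF2H2 27, HCLS1 2 and CENPVL3 3. Low counts of CG were thus present among the genes near 0 in either line. The median of the matched genes was 22 (quartiles 15 and 29), and 3.6%, 2.1% and 2.1% of them held as many CG as LCP1, IL1B and IL1RL1 or fewer. The stretches printed are the bases of those windows that overlap no exon GENCODE v29 gives the gene, 103 for LCP1 (chr13:46182325-46182427, minus strand) and 126 for IL1B (chr2:112836904-112837029, minus strand), 5′ to 3′ on the gene's strand. That of LCP1 lies in an intron of longer annotated transcripts, and that of IL1B lies before the annotated gene. Capitals mark CG, of which LCP1 has 1 here and IL1B none. These counts describe the reference sequence, and methylation was not measured.
LCP1: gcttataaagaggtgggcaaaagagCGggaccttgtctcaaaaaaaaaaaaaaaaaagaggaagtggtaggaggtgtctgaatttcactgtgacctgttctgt
IL1B: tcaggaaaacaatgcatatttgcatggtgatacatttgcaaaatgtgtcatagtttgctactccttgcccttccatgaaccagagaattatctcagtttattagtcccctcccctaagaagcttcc

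**Figure D2:**
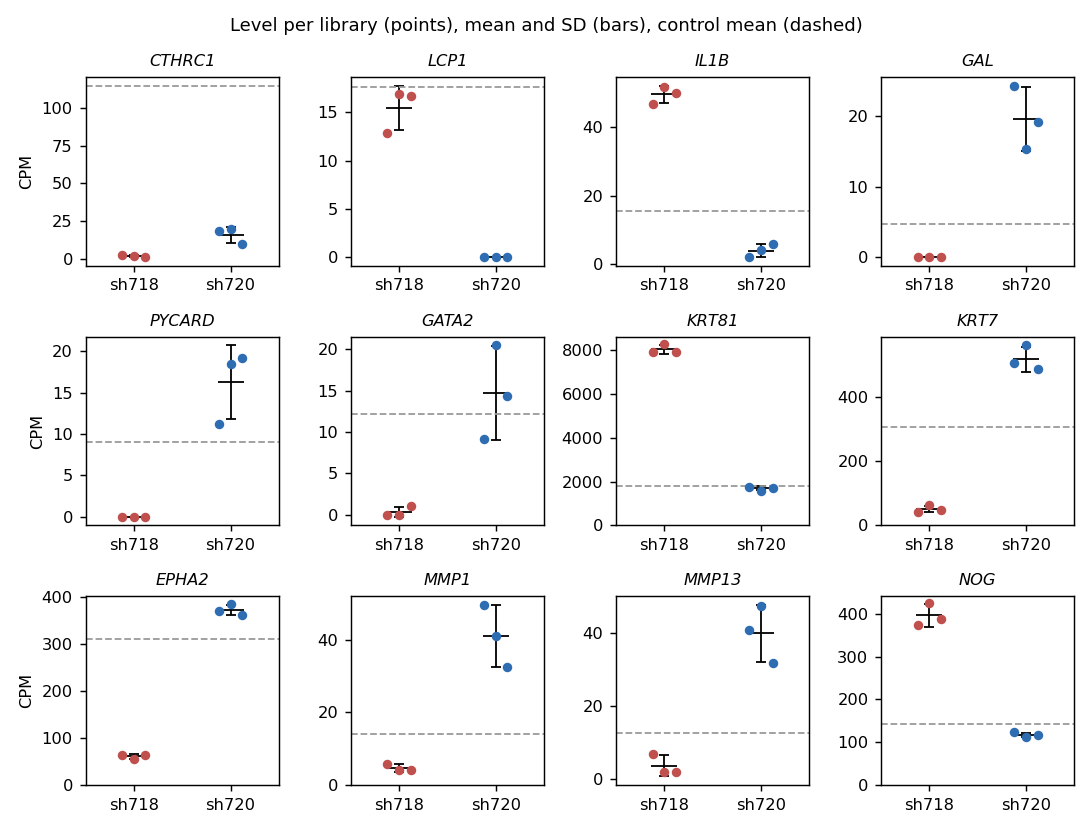
Level in CPM of 12 genes in each library of sh718 (red) and sh720 (blue), with the mean and SD over 3 libraries as bars and the mean of the control line as a dashed line. In every panel the libraries of the lines are separate, with KRT81 at 7919 to 8272 CPM in sh718 against 1581 to 1769 in sh720.

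Neighbouring keratin genes moved in opposite directions. Keratins form the intermediate filaments of epithelia, and the type II genes lie side by side on chromosome 12. KRT81, a hair keratin gene that some carcinoma lines express (ENSG00000205426, chromosome 12, 52285913 to 52291534, minus strand), had 7919, 8272 and 7926 CPM in sh718 and 1769, 1581 and 1722 in sh720, a difference of 2.25 (SE 0.06, adjusted p 8.95e-34). The lowest sh718 library lay far above the highest sh720 library. KRT7, a simple epithelial keratin gene (ENSG00000135480, chromosome 12, 52232520 to 52252186, plus strand), had 42.1, 62.7 and 49.0 CPM in sh718 and 507, 564 and 488 in sh720, a difference of -3.33 (SE 0.12, adjusted p 9.46e-29). KRT80 and KRT75, the next tested keratin genes on either side of this pair, were higher in sh718, by 1.97 (SE 0.25) and 2.71 (SE 0.30). KRT8, the main partner of KRT18, was lower by -0.49 (SE 0.10), and KRT18 lay at -0.08 uncalled. Of 8 tested keratins on the list, 5 were higher and 2 lower (median 0.28). KRT81 shares much of its sequence with other hair keratins, so its reads could be split between copies.

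Interleukin-1 and inflammasome genes also moved both ways. Inflammasomes cleave the precursors of interleukin-1 beta and interleukin-18 through caspase-1 and open membrane pores through gasdermins. Of 9 tested genes, 3 were higher and 3 lower. IL1RL1 and IL1B were on the higher side, while PYCARD, IL18 and GSDMD were lower. IL18 had 22.2, 16.9 and 30.3 CPM in sh718 and 59.8, 64.5 and 65.3 in sh720 (-1.45, SE 0.20, adjusted p 1.05e-07), and the pore-forming gasdermin gene GSDMD was lower by -0.74 (SE 0.16, adjusted p 3.63e-04). GSDME, another gasdermin gene, was higher by 0.66 with overlapping libraries, and its call was lost by DESeq2 (adjusted p 0.1525) and without sh718 library 3, sh720 library 1 or sh720 library 3 (edgeR adjusted p up to 0.183). Chemokine and NF-kB target genes gave 2 higher and 1 lower of 12 tested (25% called, beside 24.6% of all genes). DESeq2 called 0 and 1 of them, and 1 to 5 were called when 1 library was left out (5 without sh718 library 2, 1 without sh718 library 3). CXCL8, the neutrophil chemokine, was the lower member, at 43.2 ± 8.68 CPM against 70.7 ± 4.3 (-0.70, SE 0.17, adjusted p 1.05e-03).

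Among secreted peptides and hormones, 2 of 11 tested were higher and 5 lower (median -0.33). STC1, a stanniocalcin, was higher by 2.21 (SE 0.33, adjusted p 8.54e-07), whereas its relative STC2 was lower by -1.04 (SE 0.08, adjusted p 1.99e-15). The stress cytokine gene GDF15 had 199, 225 and 165 CPM in sh718 and 395, 422 and 398 in sh720 (-1.04, SE 0.10, adjusted p 1.47e-12). The trefoil peptide gene TFF2 was higher by 0.60 (SE 0.09, adjusted p 3.49e-07). Of 15 lineage transcription factors, 2 were higher and 5 lower (median -0.21). GATA2 was joined on the lower side by FOXA1, the pioneer factor of androgen receptor binding, at 104 ± 30.9 CPM against 196 ± 23.4 (-0.93, SE 0.13, adjusted p 3.12e-07), and by KLF4 (-1.03, SE 0.25, adjusted p 1.12e-03). SOX4 and the endoderm factor gene FOXA2 were higher, by 0.70 (SE 0.09) and 0.68 (SE 0.16). The HOX list had 1 of 7 called (14.3%, beside 24.6% of all genes), HOXA11 at 1.37 (SE 0.33, adjusted p 1.42e-03).

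Matrix proteases differed by gene. MMP1 and MMP13, interstitial collagenase genes that lie in the same region of chromosome 11 (102789920 to 102798160 and 102942995 to 102955734, both minus strand), were low in sh718. MMP1 had 5.84, 3.98 and 4.17 CPM in sh718 and 49.7, 41.0 and 32.6 in sh720 (-3.12, SE 0.33, adjusted p 1.20e-10). MMP13 had 7.01, 1.99 and 2.09 CPM against 40.6, 47.1 and 31.7 (-3.43, SE 0.36, adjusted p 1.15e-10). Neither overlapped between the lines, and sh720 was above the control levels of 14 and 12.5 CPM, sh718 below them. The membrane-bound MMP14 was higher in sh718, by 1.59 (SE 0.30, adjusted p 6.20e-05), as was the inhibitor TIMP1, by 0.83 (SE 0.08, adjusted p 1.08e-11).

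The plasminogen activators moved apart as well. The urokinase gene PLAU was higher in sh718 by 0.82 and the tissue activator gene PLAT lower by -0.56 (SE 0.08, adjusted p 2.33e-07). Over the whole protease and inhibitor list 5 of 20 tested were higher and 6 lower (median -0.12).

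Called integrin and basement membrane genes were mostly higher in sh718. Integrins are the receptors that hold cells to matrix, and laminins are their basement membrane ligands. ITGA5, a subunit of the fibronectin receptor, was higher by 1.83 (SE 0.32, adjusted p 1.59e-05), ITGA3 by 0.69 (SE 0.09, adjusted p 4.56e-08) and ITGB1 by 0.49. ITGB4, a hemidesmosome subunit gene, had 379, 417 and 386 CPM in sh718 and 167, 184 and 179 in sh720 (1.15, SE 0.09, adjusted p 1.65e-14). Of 12 tested integrins, 4 were higher and none lower (median 0.29, 33.3% called, beside 24.6% of all genes). Among collagens, laminins and other matrix genes, 8 of 24 were higher and 1 lower (median 0.40, 37.5% called). SPARC was higher by 1.61 (SE 0.35, adjusted p 3.72e-04), LAMA4 by 1.59 (SE 0.31) and LAMA3 by 1.33 (SE 0.19), while COL5A2 was lower by -0.73 (SE 0.17, adjusted p 6.41e-04).

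Genes of cell junctions were called in both directions, with more lower than higher on the cadherin list only. EPCAM, an epithelial surface adhesion gene, had 14.2 ± 1.37 CPM in sh718 and 39.9 ± 6.54 in sh720 (-1.48, SE 0.25, adjusted p 7.68e-06). The desmosomal cadherin genes DSC3 and DSC2 were lower by -1.15 (SE 0.21) and -1.03 (SE 0.22), and N-cadherin, CDH2, by -0.70. Of 17 cadherin and epithelial-mesenchymal genes, 4 were higher and 7 lower (median -0.15), and 7 rather than 11 were called without sh720 library 2. Among the higher were CD24, by 0.77 (SE 0.14, adjusted p 2.43e-05), and PKP1, by 0.44 (SE 0.12). The call of PKP1 was lost with a trend over GC content and length removed. CLDN4, a claudin gene of tight junctions, was higher by 0.69 (SE 0.10, adjusted p 2.11e-07). The tight junction list had 2 higher and 1 lower of 9 tested (median 0.31, 33.3% called, beside 24.6% of all genes), or 1 and 0 by DESeq2. Actin linkers and bundlers gave 10 higher and 4 lower of 28 (median 0.17), LCP1 among the higher. TNS4, a focal adhesion tensin gene, was higher by 2.53 (SE 0.39, adjusted p 1.16e-06), TPM4 by 0.79 (SE 0.11), and ENAH, which promotes actin polymerisation, was lower by -0.72 (SE 0.10, adjusted p 7.39e-08).

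**Figure D3:**
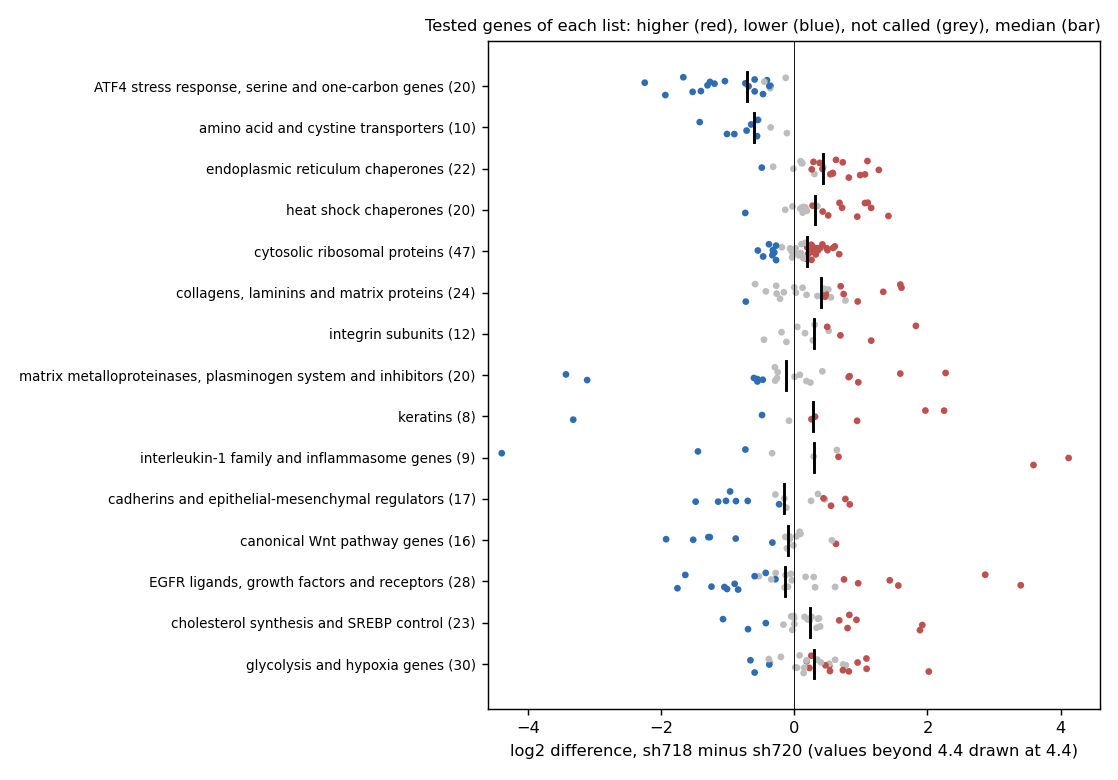
Log2 difference of sh718 minus sh720 for the tested genes of 15 lists, with the number of tested genes in brackets, genes called higher in red, called lower in blue, not called in grey, and the list median as a black bar. The ATF4 and transporter lists lie to the left of 0 with no red point, the chaperone lists mostly to the right, and PYCARD is drawn at the left edge.

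Growth factor and receptor genes were called in both directions. EPHA2 (ENSG00000142627, chromosome 1, 16124337 to 16156087, minus strand), a receptor tyrosine kinase gene of the ephrin system, had 64.3, 54.7 and 63.6 CPM in sh718 and 370, 385 and 363 in sh720 (-2.62, SE 0.11, adjusted p 8.59e-25). The lines lay far apart, with the control at 312 CPM. The Eph and ephrin list had 4 higher and 1 lower of 10 tested. By DESeq2 it had 2 and 1, and 2 to 3 called genes remained without sh718 library 2, sh720 library 1 or sh720 library 3. IGFBP3, an insulin-like growth factor binding protein gene, had 29 ± 8.01 CPM in sh718 and 2.70 ± 2.16 in sh720 (3.40, SE 0.42, adjusted p 5.57e-09). FGFBP1, which releases fibroblast growth factors from matrix, had 87.7, 104 and 129 CPM against 15.2, 15.4 and 13.4 (2.87, SE 0.20, adjusted p 1.05e-16). IGFBP5 and IGFBP4 were also higher, by 1.43 (SE 0.10) and 0.96 (SE 0.06), and IGFBP2 was lower by -1.64 (SE 0.37). FGF2 (-1.76, SE 0.34, adjusted p 7.33e-05) and the EGF receptor ligand gene AREG (-1.01, SE 0.16, adjusted p 2.41e-06) were lower. In all, 6 of 28 growth factor and receptor genes were higher and 10 lower (median -0.14).

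Wnt genes were examined because CTHRC1 is linked to that pathway. Of 16 canonical Wnt genes, 1 was higher and 6 lower (median -0.09). DKK1, a secreted inhibitor of Wnt co-receptors (ENSG00000107984, chromosome 10, 52314296 to 52318042, plus strand), had 883, 915 and 999 CPM in sh718 and 2435, 2286 and 2141 in sh720 (-1.29, SE 0.07, adjusted p 7.38e-22). The co-receptor gene LRP5 (-1.52, SE 0.25) and the R-spondin receptor gene LGR4 (-1.93, SE 0.40), both on chromosome 11, were lower, and the receptor gene FZD8 was higher by 0.62 (SE 0.08). CTNNB1, which encodes beta-catenin, lay at 0.08 uncalled. Of 18 planar polarity and non-canonical genes, 2 were higher and 3 lower (median -0.07, 27.8% called, beside 24.6% of all genes). Among the lower were ROR1, a Wnt5a receptor gene, at 13.4 ± 4.68 CPM against 33.2 ± 3.56 (-1.33, SE 0.27, adjusted p 1.59e-04), and FZD6 (-0.93, SE 0.18, adjusted p 5.18e-05). RAC1 was higher by 0.42 (SE 0.07, adjusted p 2.50e-06).

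Of 16 TGF-beta genes, 3 were higher and 4 lower (median 0.12). INHBA, the activin A subunit gene, was higher by 1.18 (SE 0.13, adjusted p 8.29e-10) and the receptor gene TGFBR2 lower by -0.99 (SE 0.21, adjusted p 3.34e-04). NOG, the gene of the bone morphogenetic protein inhibitor noggin, had 375, 426 and 389 CPM in sh718 and 123, 113 and 116 in sh720 (1.76, SE 0.10, adjusted p 4.09e-20), against 143 in control. The BMP list had 2 higher and 2 lower of 14 (28.6% called, beside 24.6% of all genes), or 1 and 1 by DESeq2. In the Hippo pathway, YAP1 (-0.96, SE 0.16) and TEAD1 (-0.86, SE 0.18), both on chromosome 11, and AJUBA (-0.90, SE 0.14) were lower, and AXL was higher by 0.75 (SE 0.09). That list had 2 higher and 4 lower of 16 (median -0.02, 37.5% called, beside 24.6% of all genes). Of 8 tested bone metastasis and osteoclast factors, 1 was higher (NOG) and 5 lower, MMP1, MMP13, DKK1, JAG1 and CD44.

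Genes of the ATF4 response were mostly lower in sh718. ATF4 is the transcription factor that cells induce under amino acid shortage and endoplasmic reticulum (ER) stress, and its targets make serine and folate enzymes and bring amino acids in. Of 20 tested genes, 17 were lower and none higher (median -0.71). Libraries did not overlap in 16 of the 17, beside 2211 of all 2355 called genes. DESeq2 called 11 of the 17 lower. TRIB3, a stress-induced pseudokinase gene (ENSG00000101255, chromosome 20, 362835 to 397559, plus strand), had 152, 237 and 202 CPM in sh718 and 759, 774 and 754 in sh720 (-1.94, SE 0.09, adjusted p 4.36e-23). PCK2, the mitochondrial PEP carboxykinase gene, had 12.6 ± 3.53 CPM against 59.5 ± 2.57 (-2.25, SE 0.23, adjusted p 5.27e-11), and the transcription factor gene CEBPB 103 ± 11.9 against 299 ± 4.59 (-1.53, SE 0.11, adjusted p 1.82e-16). The mRNA of ATF4 itself differed by -0.38 with overlapping libraries. The serine enzyme genes PSAT1 (-1.41), PHGDH (-0.47) and PSPH (-0.41) and the folate enzyme gene MTHFD2 (-1.27), described beyond the naming rule after their values were seen, were all lower. In control, TRIB3, CEBPB and PCK2 stood at 288, 184 and 27.9 CPM, between the lines.

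Amino acid transporters were lower as well, with 7 of 10 tested lower, none higher and a median of -0.61. SLC7A11, the cystine transporter gene, had 39.7, 51.7 and 43.8 CPM in sh718 and 136, 124 and 107 in sh720 (-1.42, SE 0.15, adjusted p 8.38e-11). Its partner chain gene SLC3A2 was lower by -0.90 (SE 0.10) and the glutamine transporter gene SLC38A2 by -0.72 (SE 0.07, adjusted p 1.37e-11). The 3 tested transporters that were not called lay at -0.11 (SLC1A3), -0.36 (SLC6A9) and -0.54 (SLC7A1).

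Chaperone genes were mostly higher in sh718. ER chaperones fold secreted proteins and are induced through ATF6 and XBP1. Of 22 tested, 14 were higher and 1 lower (median 0.43). HSPA5, the gene of BiP (ENSG00000044574, chromosome 9, 125234853 to 125241330, minus strand), had 955, 1008 and 892 CPM in sh718 and 488, 474 and 477 in sh720 (0.99, SE 0.07, adjusted p 5.00e-16). HSP90B1 was higher by 1.06 (SE 0.07, adjusted p 4.09e-18) and the co-chaperone gene SDF2L1 by 1.27 (SE 0.13, adjusted p 3.14e-11). XBP1 was the lower member, at -0.49 (SE 0.12, adjusted p 1.93e-03). Cytosolic and mitochondrial heat shock chaperones gave 10 higher and 1 lower of 20 (median 0.31). HSPA8, a constitutive HSP70 gene, had 501, 545 and 560 CPM against 277, 251 and 244 (1.06, SE 0.08, adjusted p 1.44e-14). HSPA1A, whose near-identical copy HSPA1B lay at 0.34 uncalled, was higher by 1.41 (SE 0.16), DNAJA1 by 1.15 (SE 0.12) and HSP90AA1 by 0.72 (SE 0.06). HSPA9, a mitochondrial HSP70 gene, was lower by -0.74 (SE 0.08, adjusted p 1.23e-10). Immediate early genes, which like heat shock genes can mark handling of cells, had 4 higher and none lower of 12 tested. That is 33.3% called, beside 24.6% of all genes, and DESeq2 called 3 higher and 0 lower. JUN was at 0.97 (SE 0.12) and IER2 at 0.80 (SE 0.08). The part of immediate early genes in the chaperone difference was not tested.

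**Figure D4:**
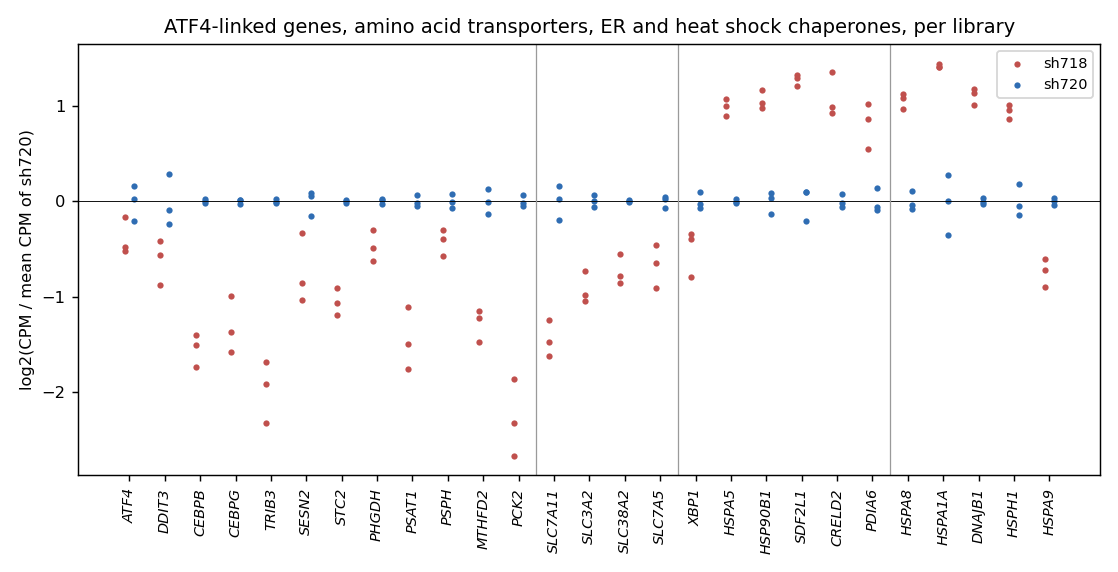
Log2 of the CPM in each library over the sh720 mean, for sh718 (red) and sh720 (blue), with vertical lines between ATF4-linked genes, amino acid transporters, ER chaperones with XBP1, and heat shock chaperones. The genes drawn are a chosen part of the lists, in which 7 of 22 tested ER and 9 of 20 tested heat shock chaperone genes were not called. HSPA1B and the uncalled transporters SLC1A3, SLC6A9 and SLC7A1 are not drawn. Among the genes drawn, sh718 points lie below 0 for the first 2 groups. They lie above 0 for the chaperones except HSPA9, with XBP1 also below 0, and for ATF4 itself the lines overlap.

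Genes of sugar and sterol metabolism were more often higher than lower. Of 30 glycolysis and hypoxia genes, 12 were higher and 3 lower (median 0.30). The glucose transporter gene SLC2A1 had 100 ± 10.7 CPM in sh718 and 51.8 ± 7.57 in sh720 (0.95, SE 0.15, adjusted p 1.62e-06), hexokinase 2, HK2, was higher by 1.08 (SE 0.24) and PFKFB4, a regulator of glycolytic flux, by 2.02 (SE 0.45, adjusted p 4.69e-04). LDHA, the lactate dehydrogenase A gene, was lower by -0.38 (SE 0.06, adjusted p 1.99e-06). GAPDH was lower by -0.66 (SE 0.14) from low counts, and its many processed copies make it uncertain. Of 23 sterol genes, 6 were higher and 3 lower (median 0.23), or 4 and 0 by DESeq2. INSIG1, the sterol-regulated gatekeeper of SREBP, had 37.3 ± 2.17 CPM against 9.90 ± 4.2 (1.89, SE 0.28, adjusted p 6.32e-07), with the control at 31.3 CPM. Of 28 fatty acid, sphingolipid and retinoid genes, 2 were higher and 4 lower (21.4% called, beside 24.6% of all genes). DESeq2 called 1 and 2 of them, and FASN was at 0.52 (SE 0.13) and DEGS1 at -0.71 (SE 0.18).

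Redox genes were called on both sides, 4 higher and 9 lower of 21 (median 0.00078). TXN, the thioredoxin gene, was lower by -0.58 (SE 0.08, adjusted p 1.56e-07), the glutathione synthesis gene GCLM by -0.68 (SE 0.14), and CAT, the catalase gene on chromosome 11, by -0.86 (SE 0.15). AKR1C3, an aldo-keto reductase gene that acts on steroids, was higher by 1.30 (SE 0.32, adjusted p 1.72e-03) and NQO1 by 0.44 (SE 0.11). Among S100 and annexin genes 6 of 18 were higher and 3 lower (median 0.19), with ANXA6 at 0.98 (SE 0.13, adjusted p 1.76e-08), S100A10 at 0.55 (SE 0.07) and the calgranulin gene S100A9 at -1.76 (SE 0.26, adjusted p 5.70e-07). Of 24 interferon and antigen presentation genes 3 were higher and 2 lower (20.8% called, beside 24.6% of all genes), with ISG20 at 1.53 (SE 0.19) and IRF7, on chromosome 11, at -1.69 (SE 0.26). APOBEC3G, a cytidine deaminase that restricts retroviruses, was higher by 3.31 (SE 0.38, adjusted p 1.35e-09).

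Proliferation genes were called in shares near that of all genes (24.6%), though the called mitosis genes were mostly higher. Of 28 replication genes (21.4% called), 2 were higher and 4 lower (median -0.0058). The cell cycle inhibitor gene CDKN1A was higher, at 40.4 ± 4.92 CPM against 14.4 ± 6.05 (1.48, SE 0.26, adjusted p 1.33e-05), and PCNA was lower by -0.41 (SE 0.09, adjusted p 2.51e-04). Of 25 mitosis genes (32% called), 7 were higher and 1 lower (median 0.12), beside 12% higher and 12.6% lower among all genes. DESeq2 called 3 higher, and 4 or 5 of the 8 calls were made without sh718 library 3, sh720 library 2 or sh720 library 3. CCNB1 was higher by 0.66 (SE 0.11) and PTTG1 by 0.79 (SE 0.10). Of 19 ERK feedback genes (26.3% called), 2 were higher and 3 lower, or 0 and 2 by DESeq2, and 3 were called without sh720 library 1. PHLDA2 was lower by -0.85 (SE 0.11, adjusted p 4.17e-08).

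No called gene of the ribosomal protein and mitochondrial mRNA lists differed by 2-fold or more. RPL36A, a ribosomal protein gene outside the list, was lower by -3.16 (SE 0.28) and is described below. Of 47 listed cytosolic ribosomal protein genes, 26 were higher and 9 lower (median 0.19), none by 2-fold. RPS4X stood at 2122 ± 77.7 CPM against 1393 ± 27.1 (0.61, SE 0.06) and RPL14, on chromosome 3, at 1269 ± 74.9 against 1857 ± 97.7 (-0.55, SE 0.06). ACTB was higher by 0.66 (SE 0.06) and the chromatin protein gene HMGA1 by 0.69 (SE 0.06). Of 13 mitochondrial mRNAs, 2 were higher and 5 lower (median 0.10). DESeq2 called 2 and 1, and 4 were called with upper quartile scaling or without sh718 library 3 or sh720 library 1. MT-ATP6 was at 0.44 (SE 0.06) and MT-ND4 at -0.44 (SE 0.06). The mitochondrial ribosomal RNA MT-RNR1 had 7337, 5505 and 9055 CPM in sh718 and 4263, 5335 and 4043 in sh720 (0.68, SE 0.09, adjusted p 2.50e-08), with sh718 library 2 close to sh720 library 2. By DESeq2 its adjusted p was 0.0401. MT-RNR2, the other such RNA, overlapped between the lines, with 63439, 47330 and 71960 counts in sh718 and 66176, 48939 and 42500 in sh720.

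Markers of other cells were few. Of 12 luminal prostate markers 3 were tested and none called, with STEAP2 at -0.54. No fibroblast or osteoblast marker of 15 met the count minimum. Of 17 leukocyte and endothelial markers only PECAM1 did, at 49.0 ± 2.67 CPM against 19.8 ± 9.57 (1.31, SE 0.23, adjusted p 1.75e-05). Of 12 neuroendocrine markers 3 were tested, and SYT1 was higher by 2.37 (SE 0.45, adjusted p 5.24e-05).

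Lower genes gathered on parts of some chromosomes. On chromosome 11, 197 of 561 tested genes (35.1%) were lower in sh718 and 16 (2.85%) higher, with a median of -0.35, beside 12.6% and 12% of all genes. Chromosomes 8 and 3 had 21.6% and 20.6% lower. Among 197 windows of 10 Mb with at least 20 tested genes, 19 had a median of -0.3 or lower and none of 0.3 or higher. These 19 held 582 genes and 242 of the lower calls, 20.1% of all of them. The lowest was chromosome 11 from 30 to 40 Mb, with 12 of 25 genes lower, none higher and a median of -0.64, where the sh718 libraries lay at -0.67 to -0.47 and the sh720 libraries at -0.0014 to 0.042 relative to the sh720 mean. Chromosome 3 from 30 to 40 Mb had 17 of 29 lower (-0.55). MMP1, MMP13 and YAP1 lie in a window with a median of -0.52, SDHD and IL18 in one of -0.39, BHLHE41 and SSPN in one of -0.46, and CTHRC1 in one of -0.43. With a trend over GC content and length removed, the chromosome 11 median was -0.38.

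**Figure D5:**
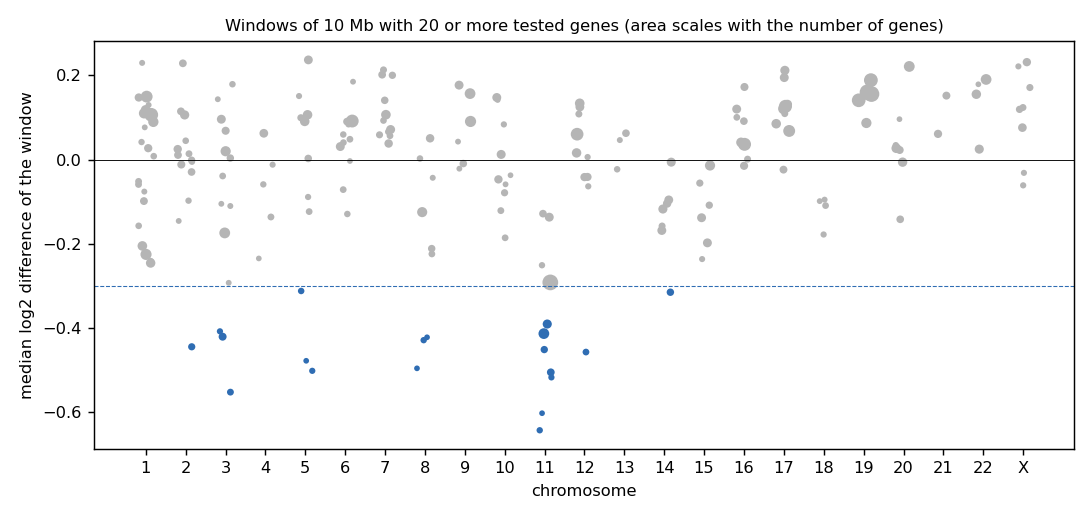
Median log2 difference of sh718 minus sh720 for 197 windows of 10 Mb by chromosome, with the area of a point scaling with its number of tested genes. The 19 windows at or below -0.3 (blue) include 7 on chromosome 11, and none lies at or above 0.3.

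SDHD, a subunit gene of mitochondrial complex II (ENSG00000204370, chromosome 11, 112086773 to 112120013, plus strand), exceeded its surroundings, with 10.5, 7.96 and 9.39 CPM in sh718 and 73.0, 82.0 and 70.1 in sh720 (-3.004, SE 0.23, adjusted p 4.88e-15). BHLHE41, a circadian repressor gene, and SSPN, the sarcospan gene, overlap on opposite strands of chromosome 12 (26120026 to 26125127 and 26121991 to 26299290). They were lower by -3.06 (SE 0.17) and -3.32 (SE 0.32), and without a known strand setting their reads cannot be told apart. MRPL39, a mitochondrial ribosomal protein gene, was lower by -3.33 (SE 0.35, adjusted p 7.61e-11). Further genes among the 15 highest were FAM107A (3.04), KRT75, ARHGDIB (3.01), the urea transporter gene SLC14A1 (2.34) and the non-coding AC137932.2, with 45 and 3 summed counts. AP001977.1 (2.95) had no position in GENCODE v29.

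Pseudogenes were called in 33.1% of 136 tested (18 higher, 27 lower), beside 24.6% of 9126 protein-coding and 21.8% of 285 long non-coding genes. Several were among the 30 most changed. MTND1P23, a nuclear copy of MT-ND1, had 277 ± 15.1 CPM in sh718 and 35.6 ± 3.5 in sh720, with 696 in control. PTMAP2 and MTND6P4 were at 2.08 and 1.79 CPM in sh718 and 50.4 and 20.7 in sh720, while the control had 0.747 and 0.745. The protein-coding gene RPL36A, which has many copies, was at 6.37 ± 2.97 against 58.1 ± 7.29, with 4.5 in control. AC107956.1 (3.15) and AC106795.1 were further pseudogenes. Reads of such genes can be placed on a near-identical copy, so these levels are uncertain.

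The control line, scaled with the other 6 libraries, gives each called gene a reference. Of the 1152 genes higher in sh718, the control mean lay between the lines and nearer to sh720 in 542, between and nearer to sh718 in 299, below both in 248 and above both in 63. Of the 1203 lower genes, it lay nearer to sh720 in 570, nearer to sh718 in 241, above both in 307 and below both in 85. KRT81 had 1808 CPM in control, near its sh720 level.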

How the data were processed

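Total RNA of PC3-Luc lines was sequenced as single reads of 75 bp, with 3000000 reads stated per sample, per the labels' protocols. The authors deposited raw counts per Ensembl gene for 9 libraries, 3 per line, and GEO lists 1 sample per line. A column was assigned to a line by its name and treated as a library. Trim Galore and GRCh38 are named, per the submitters' processing notes. The aligner, counting program, strand setting and annotation, not given in the sources used here, could change the levels of genes that overlap or have near-identical copies.

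The 6 libraries of sh718 and sh720 were fitted in edgeR 4.0.16 (R 4.3.3; TMM, glmQLFit and glmQLFTest) over genes with at least 40 counts in all, with Benjamini-Hochberg adjustment and a threshold of 0.05. Every adjusted p comes from this test unless DESeq2 (1.42.0) is named. CPM were computed here. Positions came from GENCODE v29 for 9549 of 9561 tested genes. Promoter sequences came from RefSeq (GRCh38.p14). No column was unused for lack of a sample, and the control columns entered reference levels and an alternative only.

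Genes named were CTHRC1, LCP1, IL1B, GAL, PYCARD and GATA2, the 15 highest and 15 lowest called genes by the 95% bound nearest to no change, the 10 most abundant called genes of at least 1.5-fold, genes at 0 in a line, and at most 3 per direction of each of 40 gene lists, or 2 where none was called. Other list members, and genes named with their windows, were chosen after their values were seen. The genes compared, the lists and the named markers were chosen with earlier results of these data known. The edgeR step was tested on simulated counts. Alternatives were DESeq2, all 9 libraries in the model, RLE and upper quartile scaling, no filter, at least 120 counts, each library left out, the library number as a block, a GC and length trend removed (mgcv 1.9.3), that trend with the block, and windows of 5 and 20 Mb. Counts of reads without molecular identifiers are not independent molecules. Some genes that the naming rule gives are not reported here.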

Additional observations from a re-analysis of the deposited data

How the results depend on the processing

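DESeq2 called 1168 genes, 569 higher and 599 lower, beside 2355, 1152 and 1203 by edgeR. Every other alternative kept these counts within 1.5 times. The calls numbered 1796 to 2085 with 1 library left out, 2407 with all 9 libraries in the model, 2363 with RLE scaling, 2380 with upper quartile scaling (1288 higher, 1092 lower), 2270 without a filter, 2023 at 120 or more counts and 2204 after removing the trend over GC content and length. Library numbers did not pair the lines, since deviations of same-numbered libraries correlated at 0.0137, -0.0069 and -0.0053. The replicate block gave 2311 calls, or 2156 after removing the trend. CTHRC1 was called under each of these alternatives except the minimum of 120 counts, which it did not meet. No named gene and no total reversed. Of 191 genes that the naming rule gives, DESeq2 left 29 uncalled that edgeR called, and leaving out a library 7 to 15. The share of genes in windows with a median of -0.3 or lower was 7.11% at 10 Mb, 6.66% at 5 Mb and 6.34% at 20 Mb. That in windows of 0.3 or higher was 0% at 10 Mb and 0.504% at 5 Mb, where fewer genes lie in windows that meet the gene minimum. With at most 1020684 counts per library, genes under 40 counts in all were not assessed.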
